A study of Zea mays with 48 samples.

Results

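In maize B73 seedlings, 87 gene models had higher transcript levels in the root after both treatments that cooled it, while their deposited level in the cold leaf stayed near that of the warm leaf. They were chosen from 23290 gene models listed in at least 1 of the authors' 4 tissue tables, 20906 of them in the root table. The rule asked for a log2 ratio of at least 1.5 to the control in the root of plants chilled whole and of plants chilled at the root, with 1 added to each mean level, and for a log2 ratio within 1 of the control in the leaf of whole-chilled and shoot-chilled plants. A gene missing from a tissue's table was taken as 0 there. Of the root-table genes, 262 met the root part and 175 of those moved in cold leaf, which leaves 87, or 0.416% of the root table. The root and leaf values chose the genes and are given as a description, with no test. The crown, the junction of shoot and root, took no part in the choice and carries the tests.

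The plants were at the seedling stage with 3 leaves, and leaf, root, top crown and bottom crown were profiled with 3 biological repeats of each of 4 conditions, 48 libraries in all. Control plants had shoot and root at 26 °C. Whole-plant chilling put both at 4 °C, shoot-only chilling put the shoot at 4 °C with the root at 26 °C, and root-only chilling put the root at 0 °C with the shoot at 26 °C, each for 24 h; the plants are called whole-chilled, shoot-chilled and root-chilled here. The root was therefore colder in root-chilled than in whole-chilled plants, and the effect of that difference cannot be told apart from the effect of a warm or cold shoot. All plants were of the 1 inbred line B73.

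Maize is a plant of tropical origin, and its roots lose water uptake and membrane function when the soil turns cold. Plant cells are known to answer cold through calcium signals, abscisic acid and transcription factors of the CBF/DREB family, whose targets protect membranes and proteins and change sugar metabolism. A cold root can also alter the shoot through its water supply and through signals carried in the xylem, so genes that respond in the root alone, in the crown or at a distance in the leaf can be separated by chilling one organ at a time. None of the 87 identifiers matched a name in the gene table at hand, so no gene function is given here, the pathway lists and tissue markers could not be applied, and genes are called by their identifiers.

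Expression was measured by sequencing the 3′ ends of transcripts, so a level does not grow with transcript length. Levels are given in the authors' deposited scaling, abbreviated CPM, which is the raw count times 1 constant per library. Libraries held 3449880 to 8633854 counts, and those of root 4073804 to 6599247. In root, the 87 genes together took 0.0562% to 0.0927% of all counts in the control libraries, 0.425% to 0.590% in whole-chilled plants, 0.274% to 0.382% in root-chilled plants and 0.0337% to 0.0503% in shoot-chilled plants. Replicate 1 of root in whole-chilled plants stood apart from its 2 partners: it gave the lowest of the 3 values for 44 of the 87 genes and the highest for 17. Without that library the same rule chose 83 genes, 81 of them among the 87.

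Most of the genes were scarce in the warm root. Their mean level in control root had a median of 2.81 CPM over the 87 genes, 33 were under 1 CPM and 4 had no count at all, and 14 were at 10 CPM or more. In whole-chilled plants the median level was 20.1 CPM and in root-chilled plants 14.1 CPM, and 52 genes reached 10 CPM in both. The log2 ratio to control ran from 1.51 to 5.49 with a median of 2.70 in whole-chilled plants, and from 1.51 to 5.04 with a median of 1.96 in root-chilled plants. In the root table as a whole 5.89% of genes passed the same ratio in whole-chilled and 1.40% in root-chilled plants. The ratio was larger in whole-chilled plants for 65 of the 87 genes and larger in root-chilled plants for 22. All 3 chilled libraries lay above all 3 control libraries for 76 genes in whole-chilled plants, where 16.6% of the root table did so, and for 85 in root-chilled plants, where 12% did. The rule had used these contrasts, so the counts describe the choice.

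**Figure D1:**
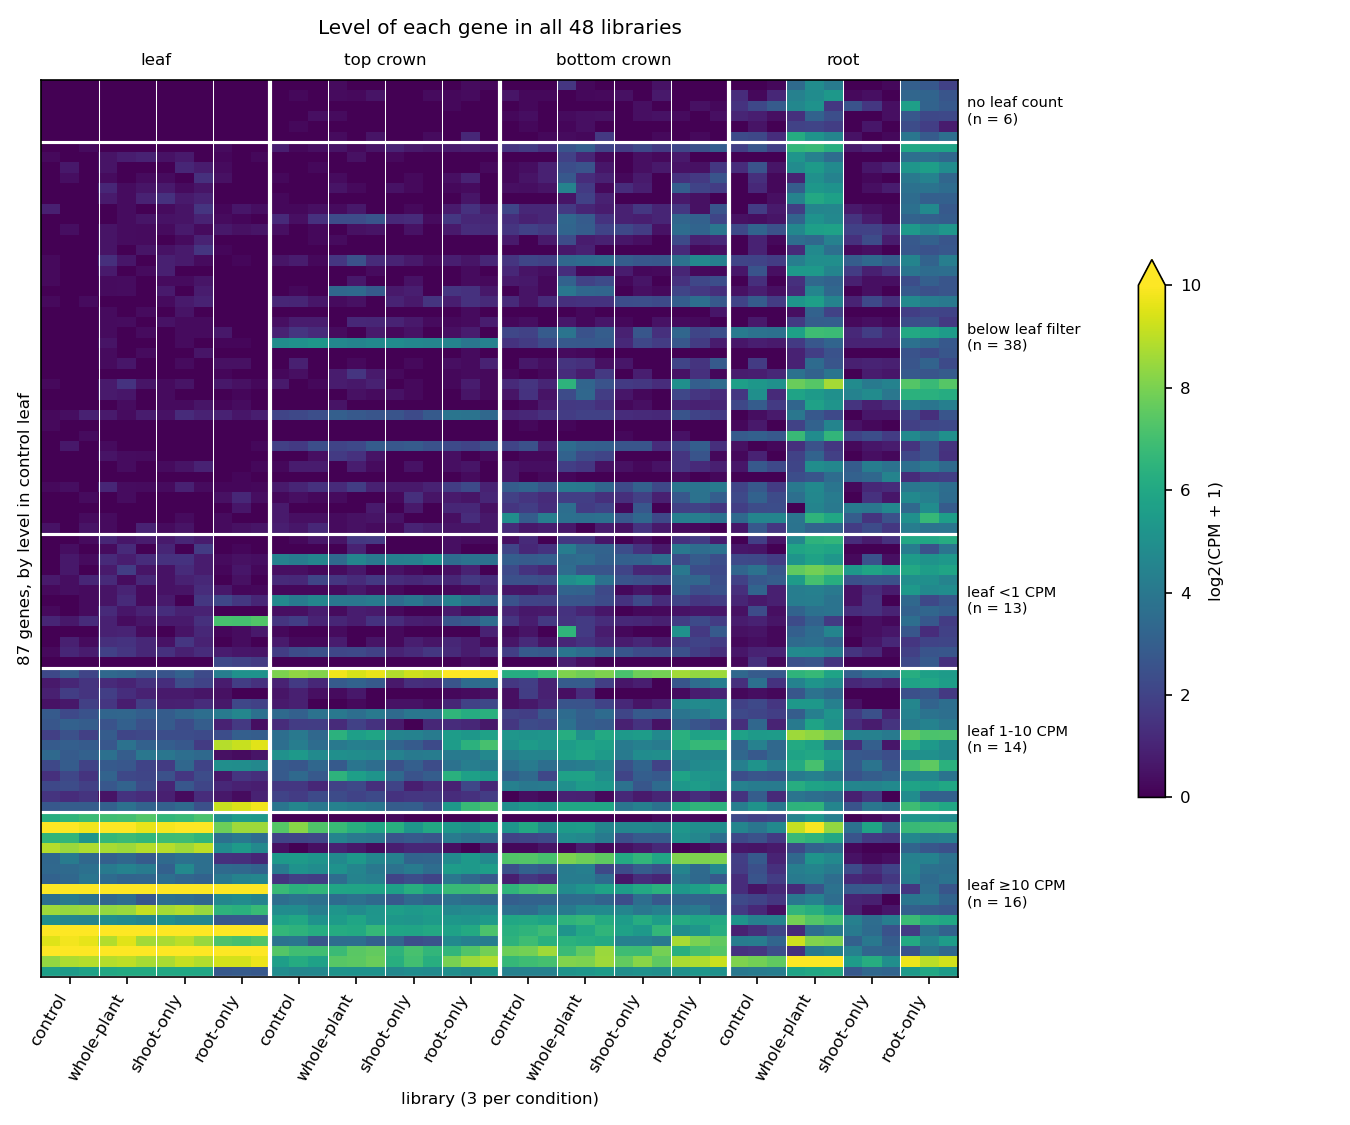
Level of the 87 genes (rows, grouped by their level in control leaf) in all 48 libraries (columns, 3 per condition), as log2(CPM + 1) with a colour scale that stops at 10. The root columns brighten in whole-chilled and root-chilled plants. In shoot-chilled root most rows stay dark, with 15 genes at 10 CPM or more, against 14 in control root. In the leaf columns the rows of the 44 genes missing from the leaf table are dark throughout. So are some rows of genes that the leaf table lists at under 1 CPM in control leaf.

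The highest pair of root ratios belonged to Zm00001d032285. It read 0, 2.61 and 0.49 CPM in the 3 control roots, 22.8, 88.3 and 95.6 CPM in whole-chilled plants, and 62.6, 61.8 and 72.9 CPM in root-chilled plants. No chilled library overlapped the control, and whole-chilled replicate 1 was far below its partners. Its log2 ratios were 5.10 and 5.04. The roots that stayed warm below a cold shoot read 1.43, 0.679 and 1.7 CPM. The next gene was Zm00001d013370, with 2.63, 5.21 and 2.61 CPM in control root, 98.2, 105 and 76.2 CPM in whole-chilled plants and 61.7, 53.2 and 54.7 CPM in root-chilled plants. The 3 groups did not overlap, and the whole-chilled values were the highest. Both genes were near 0 in every leaf library, at no more than 1.10 and 0.232 CPM, levels of a few counts.

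Other genes separated the treatments, and those named in this paragraph and in the rest of the text were chosen after their values were seen, unless they stood first in root, lowest in the crown or next to a threshold. Zm00001d003357 had the largest ratio in whole-chilled plants, 5.49, with 55.5, 64.5 and 56.3 CPM against 0.526, 0.46 and 0 CPM in control root. In root-chilled plants it read 17.3, 4.60 and 13.3 CPM, lower than any whole-chilled library and higher than any control. Zm00001d053868 differed most between the treatments. It stood at 94.7, 77.1 and 44.9 CPM in whole-chilled plants and at 7.33, 6.29 and 5.58 CPM in root-chilled plants, from 2.28, 1.23 and 0.327 CPM in control root, so its level in root-chilled plants stayed low. Zm00001d043741 went the other way, with 54.7, 58.9 and 46.2 CPM in root-chilled and 20.9, 35.1 and 26.5 CPM in whole-chilled plants. Its control roots read 1.58, 12 and 1.80 CPM, the second of them well above the other 2 but below every chilled library.

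The threshold of 1.5 fell in a dense part of the ranking. The smaller of the 2 root ratios lay between 1.5 and 1.7 for 28 of the 87 genes, and 51 further genes with a flat leaf lay between 1.3 and 1.5. Zm00001d019279 and Zm00001d029087 were just inside at 1.51 each, and Zm00001d038288 and Zm00001d018844 were just outside at 1.498 and 1.496. At the leaf threshold of 1, Zm00001d003357 (0.96) and Zm00001d052205 (0.91) were just inside, and Zm00001d004443 (1.02) and Zm00001d030131 (1.03) just outside. Choosing the genes on 2 replicates and reading the root ratios in the replicate held out gave 50 of 94, 40 of 109 and 55 of 92 genes past both root thresholds again, or 53.2%, 36.7% and 59.8%. Among all genes of the root table, 1.74%, 1.23% and 1.66% passed them in the same single replicates. These lists of 94, 109 and 92 genes are not the list of 87, the ratios rest on single libraries, and nothing was tested. One control library mattered for the number of genes: without root control replicate 2 the rule chose 132, of which 86 were among the 87.

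A flat leaf had a different basis from gene to gene. The authors' leaf table does not list 44 of the 87 genes, 6 of them without a single count in any leaf library and 38 with a few counts, at most 9 in any library and at most 42 over all 12. For these the leaf ratio was set to 0 by their absence. Their raw counts are too few for a firm level, but they are not all flat. In 13 of the 44, every library of at least 1 of the 2 cold leaf groups lay above every control leaf library, where 7.54% of the root-table genes missing from the leaf table did so. Zm00001d038521 had 0, 0 and 0 counts in control leaf, 3, 1 and 4 in whole-chilled and 8, 3 and 4 in shoot-chilled leaf. With the authors' scaling applied to these counts its log2 ratio in shoot-chilled leaf was 1.07, outside the rule's limit, and it was the only 1 of the 87 that the rule lost on that scale. The leaf table lists the other 43. Of these, 13 were under 1 CPM in control leaf, 14 lay between 1 and 10 CPM, and 16 were at 10 CPM or more with a median of 225.6 CPM. Under 1 CPM the added 1 shrinks any ratio, and in 8 of those 13 genes every library of a cold leaf group lay above every control leaf library. Over all 43 this held for 15, against 25.1% of the leaf table at any level. Genes under 1 CPM in control leaf could enter the leaf table through a higher leaf group, so these counts are a description. No share is given for leaf-table genes at that low level alone. Zm00001d032285 had 0, 0 and 1 counts in control leaf, 5, 2 and 3 in whole-chilled and 3, 5 and 3 in shoot-chilled leaf, with no overlap and log2 ratios of 0.71 and 0.75. The added 1 also decided the leaf side of 4 of the 14 genes between 1 and 10 CPM. Without it Zm00001d043741 was at 1.26, Zm00001d048178 at -1.04 and Zm00001d025141 at -1.55 in shoot-chilled leaf and Zm00001d040148 at 1.12 in whole-chilled leaf, all on the log2 scale and outside the limit. None of the 16 genes at 10 CPM or more left the limit without it. Over the 43 genes the log2 ratios in cold leaf had medians of 0.33 in whole-chilled and 0.22 in shoot-chilled plants, and ran from -0.59 to 0.89 and from -0.91 to 0.96.

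**Figure D2:**
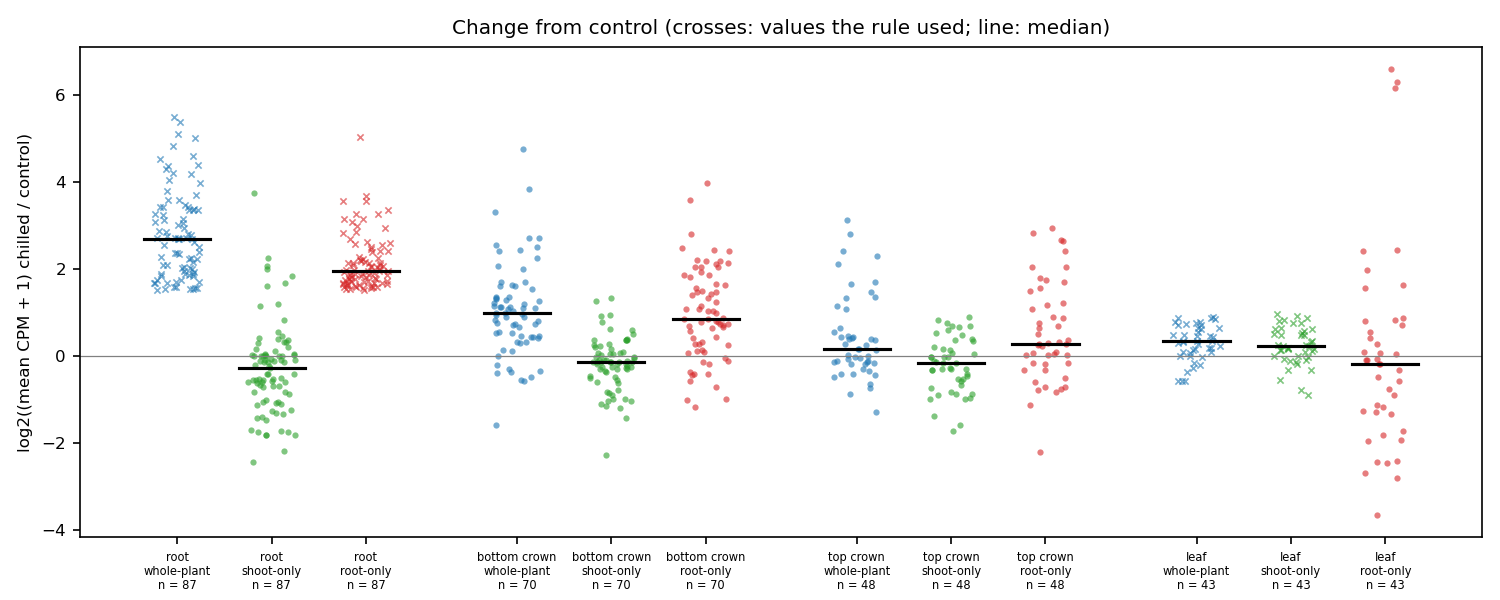
Log2 ratio of mean level to control, with 1 CPM added to each mean, for the genes listed in each tissue's table (n under each group), and the median as a black line. Crosses are the 4 contrasts the rule used. Medians were -0.28 for root of shoot-chilled plants and 2.70 for root of whole-chilled plants, and single genes in the warm leaf of root-chilled plants ran from -3.67 to 6.59.

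A set of 3 genes that leaf expressed very strongly had low root levels close to those of other leaf genes. Zm00001d041819, Zm00001d046786 and Zm00001d015385 averaged 17321, 13130.3 and 7881 CPM in control leaf and stayed at or under 20.5 CPM in every root library. Zm00001d041819 read 1.75, 1.99 and 4.25 CPM in control root, 1.60, 15.5 and 20.5 CPM in whole-chilled plants, 4.89, 14.7 and 9.45 CPM in root-chilled plants, and 19.8, 8.66 and 8 CPM in shoot-chilled plants, where the root was warm. Whole-chilled replicate 1 was thus below the control, and the shoot-chilled libraries overlapped those with a chilled root. For comparison, 58 genes were taken that had at least 1000 CPM in control leaf and 50 or more times their level in each control crown part, and these 3 are among them. The median of that list in root was 0.0231%, 0.0230% and 0.0370% of its control leaf level in the 3 control libraries. It was 0.0198%, 0.0942% and 0.143% in whole-chilled plants, 0.0428%, 0.117% and 0.0682% in root-chilled plants, and 0.113%, 0.0575% and 0.0496% in shoot-chilled plants. Zm00001d041819 was at 0.0101%, 0.0115% and 0.0245% in the control, 0.00927%, 0.0892% and 0.119% in whole-chilled plants, and 0.0282%, 0.0850% and 0.0546% in root-chilled plants. In shoot-chilled plants it was at 0.114%, 0.04997% and 0.0462%. Of the 9 libraries of chilled plants, whole-chilled replicate 1 was the lowest and whole-chilled replicate 3 the highest for the list and for each of the 3 genes. Single libraries did not always run with the list: between shoot-chilled replicates 1 and 2 the list median went from 0.113% to 0.0575% and Zm00001d015385 from 0.0751% to 0.0797%. The part of the leaf-abundant list in the higher chilled levels of the 3 genes was not tested. Without them 84 genes remain.

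In chilled root the other 13 genes at 10 CPM or more in control leaf stood at a higher percentage of their control leaf level than the 3 genes above. That percentage was 1.65% to 708% in whole-chilled and 1.45% to 328% in root-chilled plants. Their levels in CPM were not all higher: Zm00001d018623 read 3.53, 7.73 and 9.58 CPM in whole-chilled root. In all 13 neither set of chilled root libraries overlapped the control. Of the whole root table, 16.6% of genes lay above the control without overlap in whole-chilled and 12% in root-chilled plants. The rule had used these contrasts, so the lack of overlap describes the choice. Zm00001d002052 is an example. It had 1092, 1205 and 892 CPM in control leaf and 22.6, 14.3 and 25.6 CPM in control root, and 558, 953 and 330.1 CPM in root in whole-chilled plants. Root-chilled plants gave 109.5, 114 and 117 CPM, far above the level of the leaf-abundant list in the same libraries.

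**Figure D3:**
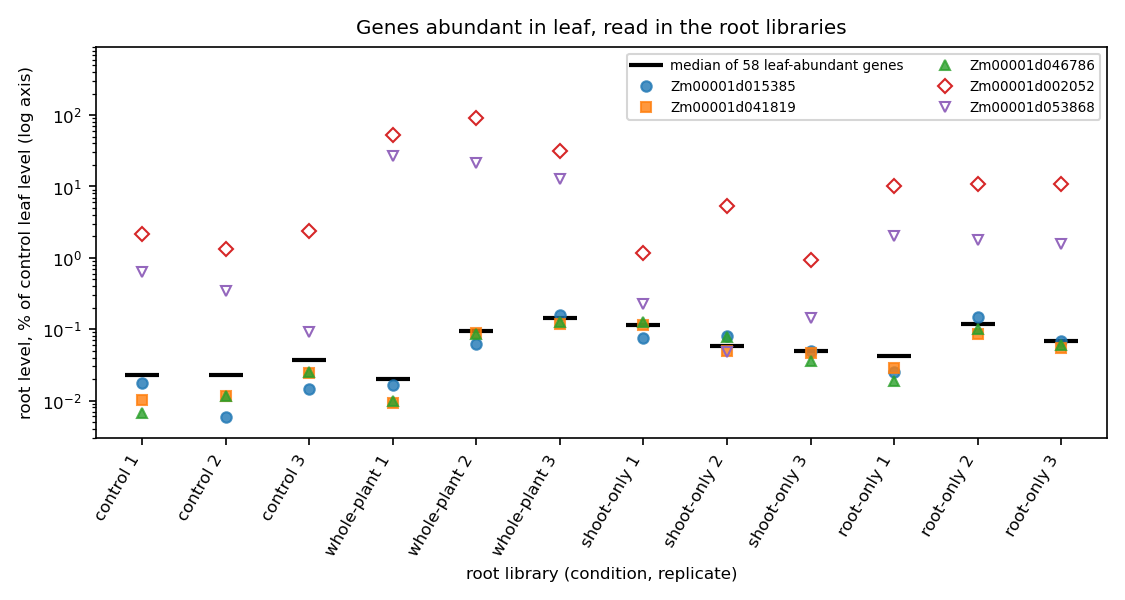
Level in each of the 12 root libraries as a percentage of the mean control leaf level, on a log axis. Black bars mark the median of 58 leaf-abundant genes and filled symbols the 3 genes that lie close to it. Open symbols mark 2 genes that lie above it in the libraries of whole-chilled and root-chilled plants. The list median ran from 0.0198% in whole-chilled replicate 1 to 0.143% in whole-chilled replicate 3.

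A warm root below a cold shoot did not show the higher levels. The root libraries of shoot-chilled plants share their controls with the contrasts of the rule, so these values are a description. The 87 genes had a median log2 ratio of -0.28 in this root, against -0.03 for all genes of the root table. Of the 87, 9 were at 1 or above, where 5.49% of the root table was, and 22 were at -1 or below, where 9.32% was. All 3 shoot-chilled libraries lay below all 3 controls for 28 genes (21.9% of the root table) and above them for 10 (20.4%). Zm00001d028601, the most abundant of the 87 in root, lay on both sides of its control within this tissue. It stood at 268, 234 and 185 CPM in control root, 1608, 1233 and 1212 CPM in whole-chilled plants, 861, 504 and 644 CPM in root-chilled plants and 45.5, 73.3 and 30.0 CPM in shoot-chilled plants. No 2 of the 4 groups overlapped, and the shoot-chilled root was the lowest. Zm00001d031811 was the largest exception, with no count in control root, 7.55, 8.99 and 20.9 CPM in shoot-chilled root, 4.17, 5.08 and 10.7 CPM in whole-chilled plants and 1.37, 2.30 and 2.58 CPM in root-chilled plants. Against a floor of 3 counts per control library, 0.492 CPM, it was at least 13.5-fold higher in whole-chilled and at least 4.24-fold higher in root-chilled plants.

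The warm leaf of a plant with a chilled root is the other contrast the rule did not use directly, although it shares the leaf controls. Of the 43 genes in the leaf table, 8 were at a log2 ratio of 1 or above (11.9% of the leaf table) and 15 at -1 or below (13.4%). The median was -0.19, against 0.07 for all genes of the leaf table. Zm00001d029087 had the highest ratio, 6.59, with 5.76, 6.78 and 6.75 CPM in control leaf and 578, 692 and 878 CPM in the leaf of root-chilled plants. When the leaf itself was cold it stayed between 4.45 and 12.3 CPM. Zm00001d029091, whose identifier is 4 numbers on, did the same, with 6.38, 7.07 and 6.30 CPM in control leaf and 466, 576 and 754 CPM in root-chilled plants. In the other direction, Zm00001d018623 read 469.7, 357 and 433 CPM in control leaf and 28.4, 42.6 and 25.2 CPM in root-chilled plants, and stayed between 372 and 514 CPM in both cold leaf groups. Of the 13 leaf-expressed genes described above, 9 were at least 2-fold lower in the leaf of root-chilled plants. The flat leaf asked for by the rule thus covers a chilled leaf above a chilled or warm root, and not root chilling under a warm shoot.

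**Figure D4:**
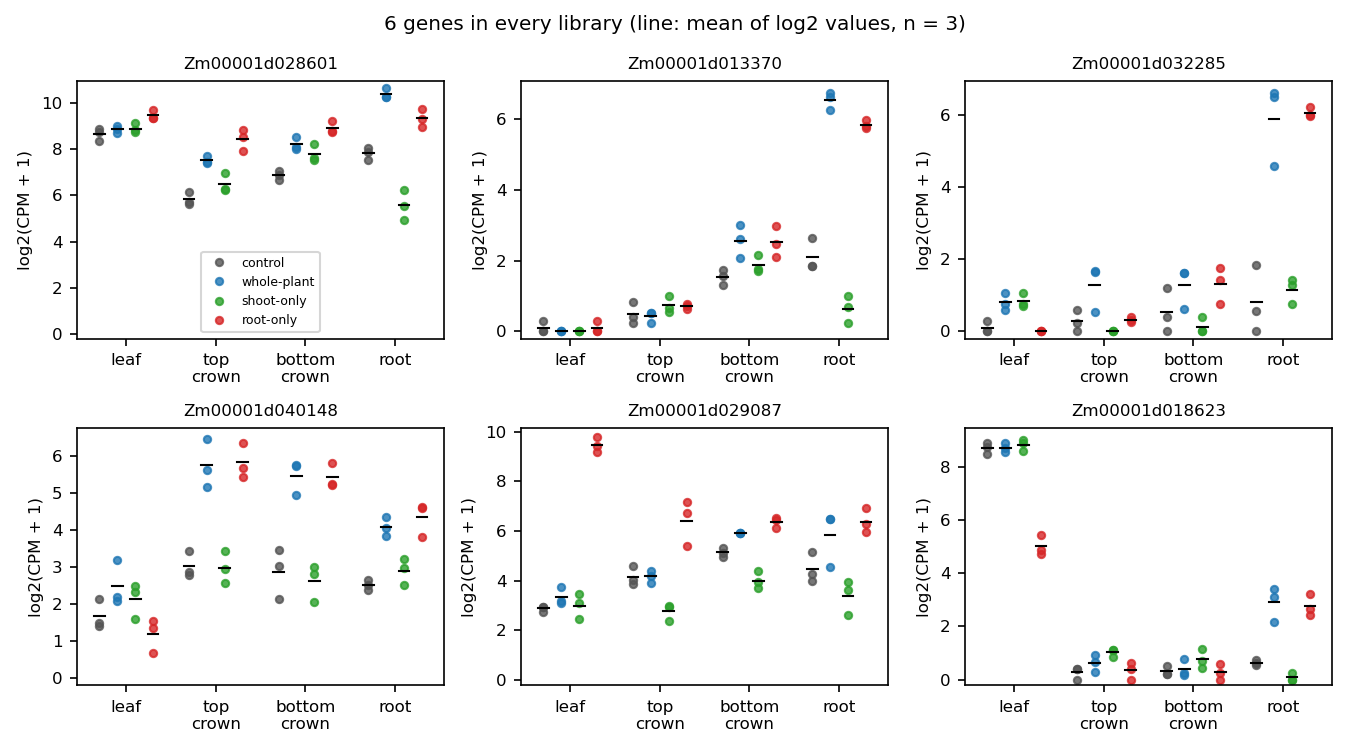
Level of 6 genes in every library as log2(CPM + 1), with the mean of the log2 values of the 3 libraries as a black line. Zm00001d028601 is higher with a chilled root in root and in both crown parts, and also higher in both crown parts of shoot-chilled plants. Zm00001d013370 and Zm00001d032285 are higher mainly in root. Zm00001d029087 and Zm00001d018623 move apart in the leaf of root-chilled plants, to 578 CPM or more and to 42.6 CPM or less.

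The comparison in the crown asks whether the same genes move in tissue that did not choose them. A gene that passed the filter on low counts only through its high group had to differ, so the counts are first given over genes with at least 10 counts in each control library. In the bottom crown 35 of the 87 met that minimum, and more of them rose than of all genes when the root was chilled. In whole-chilled plants 20 of 35 rose and 1 fell, against 16.9% and 18.7% of the 16959 genes that met the same minimum. In root-chilled plants 18 rose and 1 fell (20.2% and 19.6%), and in shoot-chilled plants 4 rose and 9 fell (14.6% and 12.9%). Their median log2 fold changes were 0.99, 0.84 and -0.14 in turn, and those of the 16959 genes -0.02, -0.06 and 0.0012. Set directly against shoot-only chilling, where the root was warm, 18 of the 35 were higher in whole-chilled plants (19.1%) and 17 in root-chilled plants (17.8%). These calls came from edgeR's quasi-likelihood test with Benjamini-Hochberg adjustment over all genes tested, at 0.05. In a bulk tissue fewer cells of a type and less RNA per cell cannot be told apart.

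Over all 61 of the 87 that passed the filter, 39 rose and 1 fell in whole-chilled plants, against 17.6% and 17.4% of the 18779 genes tested, 34 rose and 1 fell in root-chilled plants (21.4% and 18%), and 5 rose and 9 fell in shoot-chilled plants (14.4% and 11.8%). Against shoot-only chilling 36 were higher and 1 lower in whole-chilled plants (19.1% and 20.5%), and 36 higher and 1 lower in root-chilled plants (18.2% and 15.9%). These counts include genes that entered through their chilled groups, so they are a description. The count in whole-chilled plants leaned on replicate 1 of that group, and without it 24 rose. For the 20 of 35 genes above, no count without that library is given.

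Zm00001d040148 rose in the bottom crown at moderate depth. It read 7.16, 10.1 and 3.36 CPM in the control, 52.2, 53.0 and 29.7 CPM in whole-chilled, 55.1, 37.2 and 36.4 CPM in root-chilled and 3.13, 7 and 5.96 CPM in shoot-chilled plants. Both groups with a chilled root lay above the control without overlap, and the shoot-chilled values overlapped it. The log2 fold changes were 2.71 ± 0.37 (SE; adjusted p = 0.000163) and 2.66 ± 0.37 (adjusted p = 0.000152) by edgeR, and -0.32 ± 0.43 (adjusted p = 0.631) in shoot-chilled plants. Zm00001d033254 passed the filter only through its chilled groups, so its levels are given with no test. It had 0, 3 and 1 counts in the control and 0, 2 and 1 in shoot-chilled plants, against 128, 52 and 48 in whole-chilled and 15, 12 and 9 in root-chilled plants.

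Genes at moderate level also fell. Zm00001d044327 had the lowest call in the bottom crown, from 86.7, 119 and 81.3 CPM in the control to 20, 19.9 and 16.2 CPM in shoot-chilled plants, a log2 fold change of -2.31 ± 0.26 (SE; edgeR adjusted p = 4.72e-05). In root-chilled plants it rose to 411, 251 and 188 CPM (1.59 ± 0.24, edgeR adjusted p = 0.000168), and in whole-chilled plants it stayed at 82.5, 73.5 and 68.3 CPM (-0.36 ± 0.24, edgeR adjusted p = 0.274). The direct difference between root-only and shoot-only chilling was 3.90 ± 0.27 (edgeR adjusted p = 4.21e-07). The only gene called lower in whole-chilled and root-chilled plants was Zm00001d015385, 1 of the 3 leaf-abundant genes, at -1.64 ± 0.32 (edgeR adjusted p = 0.00234) and -1.02 ± 0.32 (edgeR adjusted p = 0.0243), and the root-chilled call was lost under 5 alternatives.

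**Figure D5:**
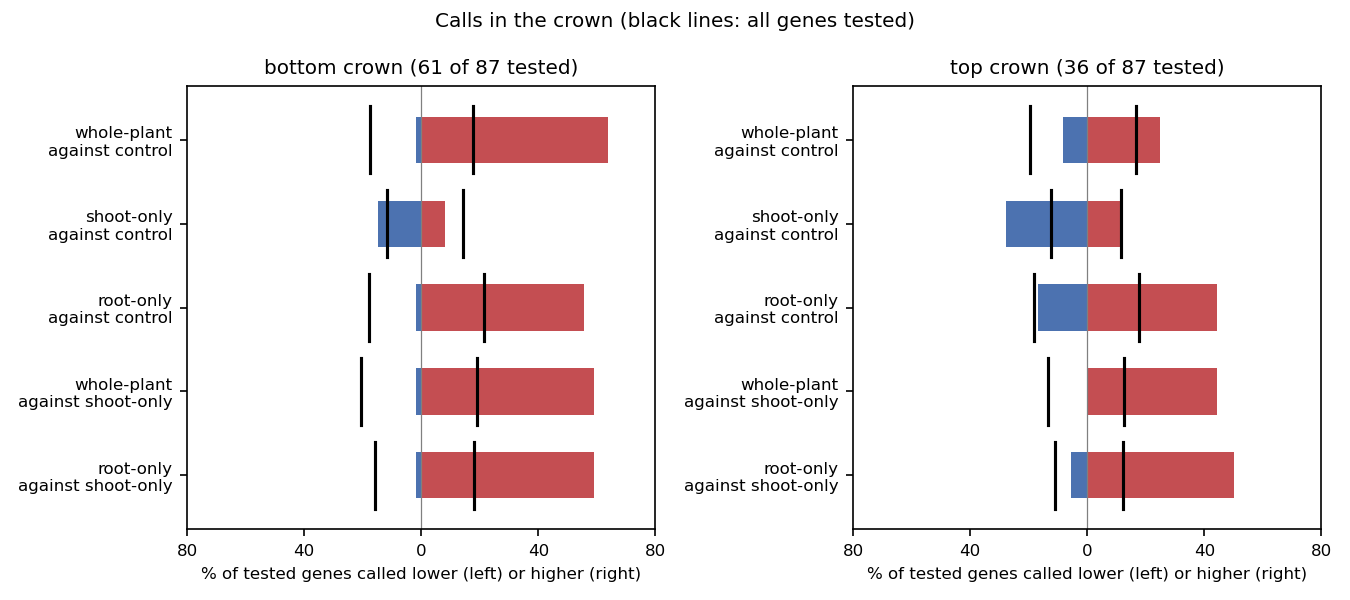
Percentage of the tested genes called higher (red, right) or lower (blue, left) in each of 5 comparisons in the bottom crown (61 of 87 tested) and top crown (36 tested), by edgeR at an adjusted p of 0.05. Black lines mark the percentage among all genes tested. In the bottom crown the red bars of the 4 comparisons with a chilled root reach 55.7% or more, and over the 35 genes with at least 10 counts in each control library the same shares are 48.6% to 57.1%.

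In the top crown falls made up more of the calls than in the bottom crown when the root was chilled. There 29 of the 87 genes had at least 10 counts in each control library. The share that fell was below that of all genes in whole-chilled plants, near it in root-chilled plants and above it in shoot-chilled plants. In whole-chilled plants 6 rose and 3 fell, against 16.4% and 20.5% of the 16218 genes that met the same minimum. In root-chilled plants 13 rose and 6 fell (16.7% and 19.6%), and in shoot-chilled plants 4 rose and 9 fell (11.5% and 13.4%). Against shoot-only chilling, 13 were higher in whole-chilled plants (12.3%) and 15 in root-chilled plants (11.5%). Over all 36 genes tested, again with those that entered through a chilled group, 9 rose and 3 fell in whole-chilled plants (16.8% and 19.5% of the 17706 genes tested), 16 rose and 6 fell in root-chilled plants (17.8% and 18.1%), and 4 rose and 10 fell in shoot-chilled plants (11.4% and 12.5%). Against shoot-only chilling, 16 of the 36 were higher and 0 lower in whole-chilled plants by edgeR (12.5% and 13.3%), with 1 lower at an unadjusted p under 0.05 and 0 lower by DESeq2, and 18 were higher and 2 lower in root-chilled plants (12.3% and 10.9%). The count of 16 leaned on every library compared: leaving out 1 of the 6 at a time gave 11 to 13. In shoot-chilled plants only 2 of the 36 rose without control replicate 1 or without shoot-chilled replicate 2.

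Zm00001d028601 rose in the top crown under each treatment that chilled the root. It stood at 48.0, 69.4 and 52.1 CPM in the control, 168, 176 and 211 CPM in whole-chilled plants and 243, 368 and 459 CPM in root-chilled plants, with no overlap among the 3 groups. The log2 fold changes were 1.67 ± 0.23 (SE; edgeR adjusted p = 5.40e-05) and 2.64 ± 0.24 (edgeR adjusted p = 4.92e-07). In the top crown of shoot-chilled plants it also rose, by 0.67 ± 0.23 (edgeR adjusted p = 0.046), a call lost under 4 alternatives, whereas in shoot-chilled root its level was the lowest of the 4 groups. In the bottom crown it was also called higher in shoot-chilled plants by edgeR, a call kept under 12 alternatives. It had 622, 816 and 893 counts in the bottom crown control and 1119, 1863 and 897 in shoot-chilled plants. Zm00001d002052 fell instead, from 162, 297 and 151 CPM to 109, 77.5 and 58.8 CPM in whole-chilled, 78.8, 36.9 and 64.5 CPM in shoot-chilled and 39.2, 32.3 and 57.0 CPM in root-chilled plants. All 9 chilled libraries lay below the 3 controls. Its log2 fold changes were -1.36 ± 0.34, -1.79 ± 0.35 and -2.26 ± 0.35 (edgeR adjusted p = 0.00905, 0.00359 and 0.000433).

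The 35 genes tested in both crown parts held a like order in them but not the same size of change. Across these genes Spearman's rho between the top and bottom crown log2 fold changes was 0.70 in whole-chilled, 0.69 in shoot-chilled and 0.78 in root-chilled plants, a description over genes that are not independent. The signed log2 fold change was higher in the bottom crown for 25 of the 35 in whole-chilled, 21 in root-chilled and 21 in shoot-chilled plants. It was higher there for 54.4%, 50% and 59.3% of the 16954 genes tested in both parts. A smaller fall also counts as higher, so these counts do not give the size of the change. In both parts 8, 15 and 2 genes rose in turn, against 10.5%, 12.3% and 7.86% of the 16954. Across the 61 genes tested in the bottom crown, the size of the root ratio and of the bottom crown change were only loosely related, with a rho of 0.22 in whole-chilled and 0.23 in root-chilled plants. Of the 175 genes that met the root part of the rule and changed in cold leaf, 98 had at least 10 counts in each bottom crown control library. There 86.7% rose in whole-chilled and 79.6% in root-chilled plants, beside 57.1% and 51.4% of the 35 genes. In the top crown 67.2% of 61 rose in whole-chilled and 54.1% in root-chilled plants, beside 20.7% and 44.8% of the 29 genes. Between root-only and shoot-only chilling in the top crown the shares were 50.8% and 51.7%. The difference between the 2 lists was not tested.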

How the data were processed

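Transcript 3′ ends were sequenced in 48 maize libraries. Raw read counts per gene were deposited for each library, and the processing notes of the submitters name STAR and edgeR. For each tissue the authors also deposited a table headed CPM, treated here as a score that the authors made by multiplying each library's raw counts by 1 constant, as the values show (largest relative deviation 3.33e-09). Some of its columns sum to more than true CPM can. Genes absent from a table were taken as 0 for the rule, and levels of such genes were computed from raw counts with the same constant.

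The 87 genes, the gene lists and the comparisons were chosen with earlier results of these data known. The rule for naming took the 2 genes ranked first in root, the 2 called lowest in crown, and the 2 on each side of a threshold, since no identifier matched the RefSeq name table and none of the 41 lists could be filled. Other named genes were chosen after their values were seen. No sequence is shown for the same reason.

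Crown counts were tested with edgeR 4.0.16 (limma 3.58.1, R 4.3.3): TMM factors, filterByExpr over the 4 conditions, robust quasi-likelihood F tests on the 12 libraries of a crown part, and Benjamini-Hochberg adjustment at 0.05. The test was checked on simulated counts. DESeq2 1.42.0, other scalings, no filter, fewer libraries, a replicate block and the omission of each library were alternatives. The labels call the repeats biological; replicate libraries of a group differed by more than counting noise (chi-square per degree of freedom at least 3.73). Near-identical gene copies can share reads, and strand handling is not given in the sources used here.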

Additional observations from a re-analysis of the deposited data

Results flagged for a closer look

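For 16 of the 87 genes every root library of root-chilled plants lay above every control root library while every leaf library of the same treatment lay below every control leaf library. All 16 are among the 43 in the leaf table, and 3.25% of the 16993 genes in both tables showed the pattern. Among the 2081 genes of both tables whose root libraries lay above control, which the choice favours, 26.6% did. The opposite directions were not tested as a difference, and the root side had been used to choose the genes. The values below are log2 ratios to control with 1 added to each mean, root-chilled plants against control. Zm00001d002052 stood at 2.39 in root and -1.72 in leaf. Zm00001d018623 stood at 2.19 and -3.67, and Zm00001d053868 at 1.7 and -1.96. Zm00001d044327 had 1.56 in root and -2.46 in leaf, and Zm00001d019279 had 1.51 and -2.81. Of the leaf-abundant genes, Zm00001d015385 had 1.86 and -0.90 and Zm00001d041819 had 1.54 and -1.34, and both are among the list of 58 leaf-abundant genes.

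Between the crown parts, 2 genes in whole-chilled plants and 1 gene in shoot-chilled plants had every library above control in one part and below control in the other, against 0.715% and 0.63% of the 18879 genes in both crown tables. This difference was not tested either.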

How the results depend on the processing

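The number of genes chosen was 43 when a gene had to be in both the leaf and the root table, 128 with a pseudocount of 0.5 (77 shared with the 87) and 61 with 2 (52 shared). It ran from 75 to 132 as each root and leaf library was left out, the highest without root control replicate 2. Leaving out 1 library at a time, genes called higher in the bottom crown numbered 24 to 37 in whole-chilled, 5 to 6 in shoot-chilled and 30 to 33 in root-chilled plants against control, and 25 to 40 and 27 to 37 in whole-chilled and root-chilled against shoot-chilled plants. In the top crown the same ranges were 9 to 11, 2 to 4, 15 to 17, 11 to 13 and 17 to 20. The lowest bottom crown count, 24, was without whole-chilled replicate 1, and the top crown count in shoot-chilled plants was 2 without control replicate 1, without shoot-chilled replicate 2 and with library size alone. Library size alone also gave 26 in whole-chilled bottom crown. With at least 10 counts in each control library, a choice made after seeing the data, the bottom crown counts were 20 and 18 against control and 18 and 17 against shoot-chilled plants, over 35 genes in place of 61. Same-numbered libraries deviated together weakly: the median correlation was 0.0908 in the bottom and 0.0784 in the top crown against -0.0473 and -0.0186 for different numbers, and 16 and 11 of 18 same-numbered pairs were positive. In 11 of 12 bottom crown and 9 of 12 top crown libraries the mean correlation was higher with the own number. In none of the 5 comparisons tested in either part was every pair over 0.1, the limit set for pairing, so the numbers were not taken as pairs. Every pair was over 0.1 between whole-chilled and root-chilled bottom crown, which were not compared. With a replicate block the bottom crown counts were 36, 5, 39, 38 and 41 and the top crown counts 9, 4, 16, 14 and 17, in the order of the ranges above. No called gene that is named reversed its direction under any alternative run. Low depth limits the leaf side: 44 genes are missing from the leaf table, and 13 others were under 1 CPM in control leaf.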

Other observations

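Some of the 87 genes carry neighbouring identifiers. Of the 87, 5 have a consecutive identifier in the set and 13 have one within 3. Among the 175 root-induced genes that changed in cold leaf, 17 have a consecutive identifier in that longer list. The run Zm00001d024750, Zm00001d024751 and Zm00001d024752, chosen after its values were seen, covered a wide range of level. Zm00001d024752 read 48.4, 37.7 and 31.0 CPM in control root, 207, 165 and 404 CPM in whole-chilled and 158, 110.1 and 164 CPM in root-chilled plants. Zm00001d024751 read 6.31, 7.36 and 5.88 CPM, then 109, 27.8 and 93.5 CPM, then 25.7, 14.1 and 31.5 CPM. Zm00001d024750 read at most 0.613 CPM in control root, 2.89, 7.95 and 21.9 CPM in whole-chilled and 2.75, 3.37 and 3.58 CPM in root-chilled plants. Whether the 3 share reads through similar sequence was not tested.

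Zm00001d033256 was higher in the top crown, from 11, 16 and 15 counts in the control to 47, 112 and 83 in whole-chilled and 90, 40 and 31 in root-chilled plants. The log2 fold changes were 2.80 ± 0.35 (SE) and 2.07 ± 0.36 (edgeR adjusted p = 9.46e-06 and 0.000239). In the bottom crown it had 5, 14 and 10 counts in the control, under the minimum of 10 in each library, and 149, 100 and 58 in whole-chilled and 70, 53 and 35 in root-chilled plants, given with no test. Zm00001d033254 had 0, 1 and 0 counts in the control of the top crown and 40, 50 and 28 in whole-chilled plants, and it passed the filter only through its chilled groups, so no test of it is given. The root levels of Zm00001d033256 were 1.40, 5.06 and 2.45 CPM in the control, 16.4, 17.9 and 10.9 CPM in whole-chilled and 18.6, 10.4 and 13.0 CPM in root-chilled plants.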
